A study of Homo sapiens with 3 samples.

Results

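Histone genes were followed in EBC-1, an established human line of lung squamous cell carcinoma, with CAGE (cap analysis of gene expression), in which tags read from the capped 5′ ends of transcripts are counted. Genes were taken by symbol: every HIST1 to HIST4 gene of the H1, H2A, H2B, H3 and H4 classes, and every gene whose symbol begins with H2AF, H3F3 or H1F. This gave 60 of the 13479 genes in the table, 48 of them clustered, replication-dependent genes (HIST1, HIST2 and HIST4) and 12 variant genes. EBC-1 cells had been electroporated with 600 pmol of a negative control siRNA or of RAB11A siRNA 1 or RAB11A siRNA 2, a pair of siRNAs against the small GTPase RAB11A, and the labels place the electroporation 72 h after plating. Each of these 3 groups is 1 library of total RNA, so none of the differences could be checked against replicates, and both ratios to control share the same control library.

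RAB11A stood at 135.3 CPM (the tags of a gene scaled to a common library total) in the control library, 7.48 CPM with siRNA 1 and 22.7 CPM with siRNA 2, so 5.53% and 16.8% of the control level was left. All 3 libraries had the same scale of 24999950 tags, and 1 tag was worth 0.04 CPM. Of 21 squamous epithelial markers 4 were listed (SFN, PERP, S100A2 and GPC1), and their summed level lay between 231 and 256 CPM in the 3 libraries. The other markers of that list, its keratins and TP63 among them, were looked up and not found among the listed genes. Most of the list was therefore missing, and the labelled cell type was checked on these 4 alone. Why the others were absent was not tested. Of 20 markers of other cell types 3 were listed, with a summed level of 24.4 to 48.0 CPM, nearly all of it from CD68 (45.2, 21.1 and 31.4 CPM in control, siRNA 1 and siRNA 2). The collagen genes COL1A1 and COL1A2 stayed between 1.04 and 2.28 CPM, and the part of such cells in the histone values was not tested.

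Replication-dependent histone genes supply the bulk of the nucleosome proteins while DNA is copied. They are intronless, sit in clusters, and most of their mRNA ends in a conserved stem-loop bound by the stem-loop binding protein SLBP in place of a poly(A) tail. Their transcription in S phase depends on NPAT, a coactivator and substrate of cyclin E with CDK2. Variant histones such as the H2A.Z, H3.3 and macroH2A proteins are made throughout the cell cycle, mostly from single genes with introns and polyadenylated mRNA, and H2AX is known to be made in both forms. In a bulk library a larger share of cells in S phase and more histone mRNA per cell cannot be told apart.

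The 3′ stem-loop followed the division into clustered and variant genes, with H2AFX as the exception. A 16-base match to the stem-loop pattern within 100 bases after the stop codon was present in 43 of 43 clustered genes with an annotated stop codon, in 1 of 10 coding variant genes (H2AFX) and in 27 of 19989 other protein-coding genes (0.135%), 25 of which are histone genes by name. The 5 sequences below, read from GRCh37, show 5 of the 7 forms of this element in these genes, with its 16 bases in capitals. The HIST1H1B form was shared by 29 genes, the HIST1H2BC form by 5 and the HIST1H4C form by 6, all of them H4 genes. The forms of HIST2H2AC and H2AFX were each found in 1 of these genes.
HIST1H1B, chr6:27834570-27834595, minus strand: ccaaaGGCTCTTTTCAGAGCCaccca
HIST1H2BC, chr6:26123695-26123720, minus strand: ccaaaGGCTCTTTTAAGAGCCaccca
HIST1H4C, chr6:26104540-26104565, plus strand: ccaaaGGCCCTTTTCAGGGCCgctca
HIST2H2AC, chr1:149858936-149858961, plus strand: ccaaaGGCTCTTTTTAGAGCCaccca
H2AFX, chr11:118965603-118965628, minus strand: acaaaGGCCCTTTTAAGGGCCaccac

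Promoters were taken from RefSeq as windows of 250 bases before to 50 bases after a start, from a table on GRCh38.p14, and placed on GRCh37 by exact match. Those of HIST2H2AA3, HIST2H2AA4, HIST2H3A and HIST2H3C matched 2 places. A window was at hand for 38 of the 48 clustered genes and 9 of the 12 variants. The stretches below run from 130 bases before the start to 15 bases after it and are shown for 1 H1, 1 H2B, 1 H3 and 2 H4 genes and 2 variants described in the results that follow. Capitals mark TATAAA (a form of the TATA box), CCAAT or its reverse ATTGG, and ATTTGCAT (the octamer bound by the POU factor Oct-1), each searched on both strands. Only these exact letters were searched. Other forms of the TATA box are neither marked nor counted, so a gene without TATAAA may still have one.
HIST1H1B, chr6:27835352-27835496, minus strand: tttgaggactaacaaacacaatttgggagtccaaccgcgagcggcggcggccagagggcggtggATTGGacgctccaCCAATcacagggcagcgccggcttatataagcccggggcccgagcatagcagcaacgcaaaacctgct
HIST1H2BB, chr6:26043927-26044071, minus strand: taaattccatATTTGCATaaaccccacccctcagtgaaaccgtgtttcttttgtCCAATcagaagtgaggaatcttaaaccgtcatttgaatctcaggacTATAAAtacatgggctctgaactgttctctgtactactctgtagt
HIST1H3B, chr6:26032313-26032457, minus strand: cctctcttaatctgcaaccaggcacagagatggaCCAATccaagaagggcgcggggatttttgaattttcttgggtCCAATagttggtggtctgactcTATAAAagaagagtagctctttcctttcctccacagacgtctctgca
HIST1H4B, chr6:26027497-26027641, minus strand: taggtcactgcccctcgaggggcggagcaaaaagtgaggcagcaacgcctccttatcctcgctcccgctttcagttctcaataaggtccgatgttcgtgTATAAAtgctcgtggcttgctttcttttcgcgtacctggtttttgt
HIST4H4, chr12:14924051-14924195, minus strand: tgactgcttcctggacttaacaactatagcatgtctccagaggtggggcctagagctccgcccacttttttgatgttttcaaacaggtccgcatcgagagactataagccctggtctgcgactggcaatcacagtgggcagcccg
H2AFX, chr11:118966161-118966305, minus strand: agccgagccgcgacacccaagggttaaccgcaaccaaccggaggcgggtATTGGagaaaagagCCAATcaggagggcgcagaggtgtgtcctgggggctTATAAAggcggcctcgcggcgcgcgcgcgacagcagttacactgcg
H2AFZ, chr4:100871418-100871562, minus strand: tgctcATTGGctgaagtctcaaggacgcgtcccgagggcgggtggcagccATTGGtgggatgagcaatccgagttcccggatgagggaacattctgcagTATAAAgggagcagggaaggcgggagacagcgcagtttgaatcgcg

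A TATAAA lying 35 to 25 bases before the start was held by 26 of 38 clustered genes (68.4%) and 4 of 9 variants (44.4%). The share was 2.75% of all 27305 genes with a window. CCAAT occurred anywhere in the window of 34 of 38 clustered genes (89.5%) and 7 of 9 variants (77.8%), against 39.7% of all genes with a window. Among clustered genes it was found in every H1, H2A, H2B and H3 gene with a window, but in 1 of 5 H4 genes. The octamer was found in 7 of 11 H2A and 8 of 11 H2B genes and in no H1, H3 or H4 gene. It was also found in 1 of 9 variants (H3F3B) and in 2.19% of all genes with a window. The 3 motifs share no overlapping letters in these matches, but the windows of divergent H2A and H2B genes overlap each other, so one octamer can be counted for both. The HIST4H4 stretch printed above holds none of the 3 motifs. A match is a match of letters and does not show that a factor binds there.

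Of the 60 genes 54 averaged 5 CPM or more over the libraries (125 tags) and are described by ratios: 43 clustered genes and 11 variants. The 6 below it were HIST2H2AA3, HIST1H2BE, HIST2H3A, HIST2H3C, HIST2H3D and the H3F3A pseudogene H3F3AP6. The 5 clustered genes among them lay between 0.36 and 3.48 CPM. HIST2H2AA4, HIST2H2BA and HIST2H3DP1 passed with a control value under 5 CPM, that is, through their siRNA values. HIST2H2AA3 and HIST2H2AA4, and HIST2H3A and HIST2H3C, have near-identical sequences at 2 places in the genome, and the sources used here do not say how tags with several matches were shared. Near copies of the first bases of an annotated transcript were found for 8 of the 43 clustered genes and 4 of the 11 variants. Besides HIST2H2AA4, these were HIST1H2BC, HIST1H2BJ, HIST1H2BK, HIST2H2BF, HIST1H4J, HIST2H2BA, HIST2H3DP1, H3F3A, H2AFV, H2AFY2 and H3F3AP4, whose values may have the same limit.

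Control levels of these 43 clustered genes ran from 3.72 to 1672 CPM. CAGE counts 1 tag per capped end, so that levels of different genes can be compared without regard to length. The highest was HIST1H1C, a linker histone gene, with 1672, 2347 and 2097 CPM in control, siRNA 1 and siRNA 2. HIST1H2AC, an H2A gene, had 1524, 2052 and 1847 CPM in the same order. Its divergent neighbour HIST1H2BC, an H2B gene, had 1516, 2392 and 2094 CPM. In the control library the counting intervals of these neighbours overlapped (1509 to 1539 and 1501 to 1531 CPM, 95% exact Poisson, counting error only). HIST2H2AC had 1266, 1910 and 1598 CPM, and HIST1H3H, an H3 gene, 1221, 2095 and 1915 CPM. In all of these 5 genes control was the lowest library and siRNA 1 the highest. Together they gave 32.7%, 30.8% and 30.1% of the tags of the clustered genes.

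**Figure D1:**
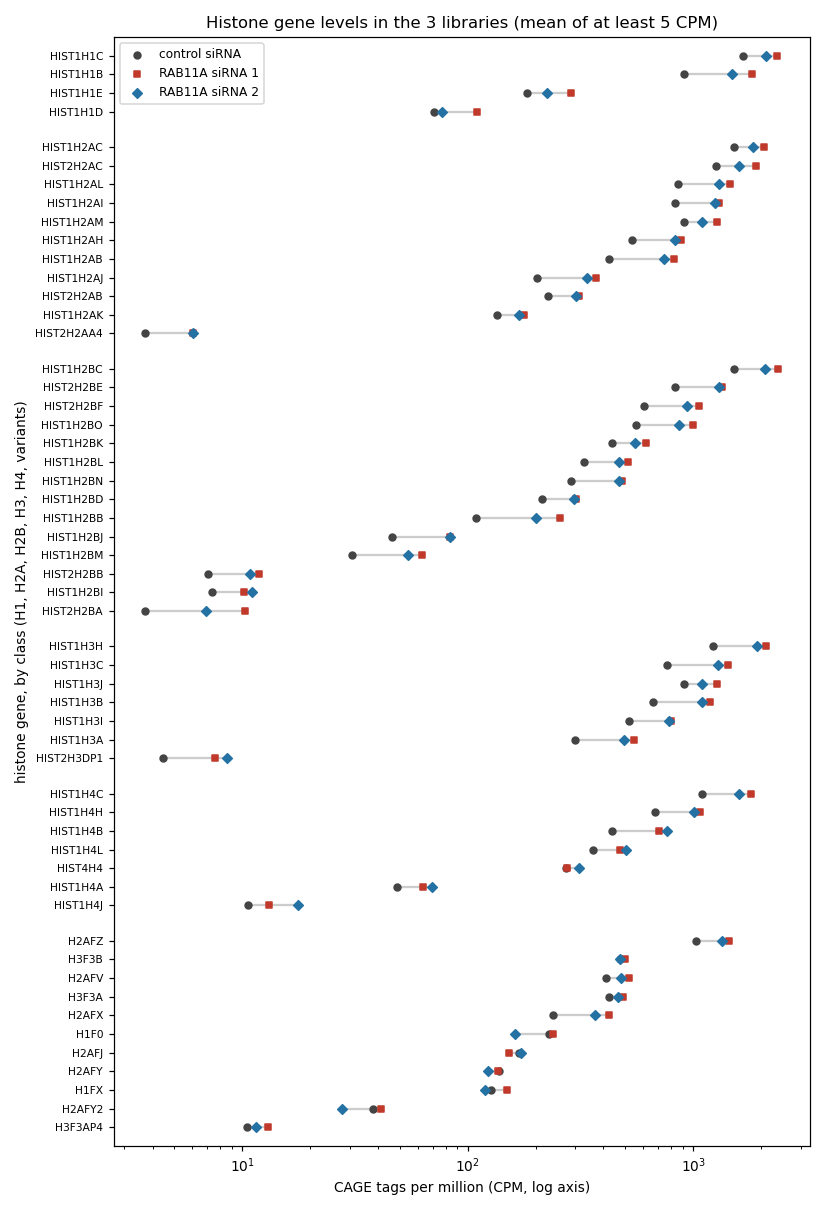
Level of each histone gene averaging 5 CPM or more in the control (circle), RAB11A siRNA 1 (square) and RAB11A siRNA 2 (diamond) libraries, on a log axis of CPM, by class. The control point is the lowest of each clustered gene, whereas in the rows of H1F0, H1FX, H2AFY, H2AFY2 and H2AFJ another library is the lowest.

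The 43 clustered genes averaging 5 CPM or more were higher than control in both RAB11A siRNA libraries, which for HIST2H2AA4, HIST2H2BA and HIST2H3DP1 the filter itself required of at least one library. Of the 5 clustered genes below it, HIST2H3D was lower in both (0.84, 0.72 and 0.72 CPM in control, siRNA 1 and siRNA 2), HIST1H2BE was equal to control with siRNA 1 (0.36, 0.36 and 0.72 CPM), and HIST2H2AA3, HIST2H3A and HIST2H3C were higher in both. The ratio used here is the log2 of (CPM + 1) in one library over the other, which slightly understates the ratio of low genes. Its median was 0.66 with siRNA 1, with a range of 0.02 to 1.25, and 0.59 with siRNA 2, with a range of 0.11 to 0.88. The median over all 10357 distinct genes tested was -0.03 and -0.04. Of all genes, 45.1% were above control with siRNA 1 and 41.2% with siRNA 2. A level at least 1.5-fold higher than control was reached by 29 clustered genes with siRNA 1 and 22 with siRNA 2, against 2.8% and 1.17% of all genes. At 2-fold, 4 clustered genes passed with siRNA 1 (0.348% of all genes) and 0 with siRNA 2 (0.174% of all genes). The 4 were HIST1H1B, HIST1H2BB, HIST1H2BM and HIST2H2BA, the last of which passed the filter only through its siRNA values. With no filter on low values, 32 and 24 of the 48 clustered genes were at least 1.5-fold higher.

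Counting error was small against these ratios. The median counting standard error of a clustered gene's ratio was 0.018 with both siRNAs, while the standard deviation over the 43 genes was 0.24 and 0.20. An exact two-sided binomial test of tags with Benjamini-Hochberg adjustment over all genes, which compares these libraries and not the conditions, called 42 of the 43 higher with siRNA 1 and 43 with siRNA 2, against 23.4% and 18.3% of all genes. The gene not called was HIST4H4. Across the 43 genes the ratio had a Spearman correlation with mean level of 0.10 with siRNA 1 and -0.18 with siRNA 2, given as a description since all genes share 3 libraries.

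**Figure D2:**
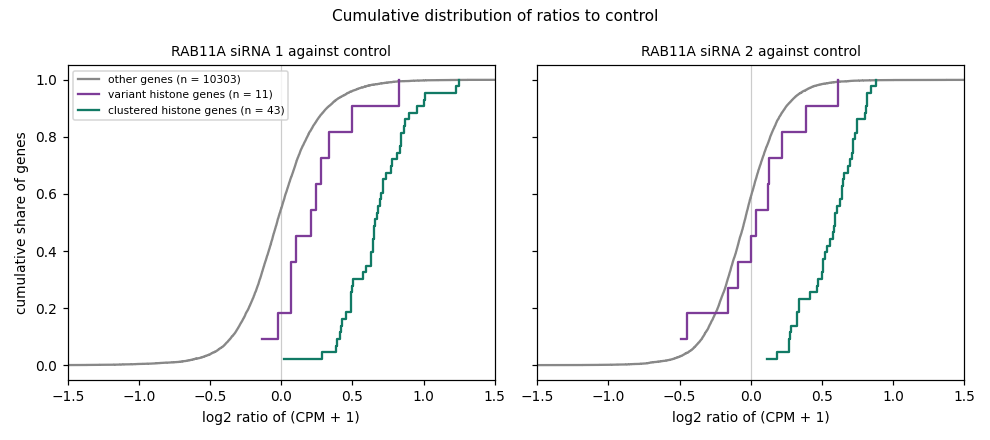
Cumulative share of genes (vertical axis) at or below each log2 ratio to control (horizontal axis) for clustered histone genes, variant histone genes and all other tested genes, with siRNA 1 on the left and siRNA 2 on the right. The clustered curve lies wholly to the right of 0, with medians of 0.66 and 0.59, and the variant curve lies between it and the other genes over most of its length.

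The H1 genes encode linker histones, which bind DNA between nucleosomes. HIST1H1B had 907, 1821 and 1484 CPM in control, siRNA 1 and siRNA 2, a log2 ratio of 1.01 (counting SE 0.012) and 0.71 (SE 0.012). HIST1H1D had 71.0, 110 and 76.9 CPM, so that its ratio was 0.63 with siRNA 1 (SE 0.043) and 0.11 with siRNA 2 (SE 0.047). The latter was the lowest siRNA 2 ratio of any clustered gene averaging 5 CPM or more. HIST1H1E lay at 184, 288 and 224 CPM. With siRNA 1 the 4 H1 genes had a median ratio of 0.64, and with siRNA 2 of 0.30.

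Among genes of the core histones, H2A and H2B pair in the outer dimers of the nucleosome and H3 and H4 form its central tetramer. The 11 H2A genes had median ratios of 0.59 and 0.58 for siRNA 1 and siRNA 2. HIST1H2AB led them with 422, 819 and 743 CPM in control, siRNA 1 and siRNA 2, a ratio of 0.95 (SE 0.017) and 0.81 (SE 0.018). The 14 H2B genes had medians of 0.72 and 0.64. HIST1H2BB, whose promoter is printed above with its octamer, CCAAT and TATAAA, had 108, 256 and 200.2 CPM, and its ratios of 1.23 (SE 0.033) and 0.88 (SE 0.034) were the highest of any clustered gene above 20 CPM. HIST1H2BM had 30.6, 62.5 and 54.3 CPM, and HIST1H2BJ 46.1, 83.5 and 83.6 CPM. The pseudogene HIST2H2BA had the highest siRNA 1 ratio, 1.25, but on few tags (3.72, 10.2 and 6.92 CPM, SE 0.14), and its values were identical to those of the listed gene RP11-439A17.10.

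The 7 H3 genes had median ratios of 0.78 and 0.72. HIST1H3C had 768, 1432 and 1287 CPM, HIST1H3B 663, 1182 and 1094 CPM, and HIST1H3A 298, 544 and 493 CPM in control, siRNA 1 and siRNA 2. The low pseudogene HIST2H3DP1 had 4.44, 7.56 and 8.60 CPM. HIST1H3J (907, 1275 and 1094 CPM) had almost the values of the H2A gene HIST1H2AM (907, 1274 and 1093 CPM). Its annotated span, chr6:27858093-27860884 on GRCh37, overlaps HIST1H2AM (chr6:27860477-27860963) on the same strand, and its tags cannot be told apart from those of that gene. Without HIST1H3J the summed H3 level was 1.75-fold and 1.61-fold that of control.

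The 7 H4 genes had median ratios of 0.41 with siRNA 1 and 0.54 with siRNA 2. HIST1H4C, the highest, had 1100, 1805 and 1597 CPM, and HIST1H4H had 676, 1075 and 1012 CPM. HIST1H4B had 437, 708 and 764 CPM. HIST1H4L had 358, 476 and 506 CPM, HIST1H4A 48.5, 63.5 and 69.5 CPM, and HIST1H4J 10.6, 13.2 and 17.6 CPM. HIST4H4, which lies on chromosome 12 near the variant gene H2AFJ and away from the clusters on chromosomes 6 and 1, had 274, 277 and 311 CPM. Its ratio of 0.02 with siRNA 1 (SE 0.025) was within counting error of 0, and that with siRNA 2 was 0.19 (SE 0.024). By position, the 34 genes of HIST1 had medians of 0.66 and 0.59 and the 8 of HIST2 had 0.67 and 0.61. Among those 8, HIST2H2AA4, HIST2H2BA and HIST2H3DP1 passed the filter only through their siRNA values. HIST2H2BA, HIST2H2BB and HIST2H3DP1 are pseudogenes.

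**Figure D3:**
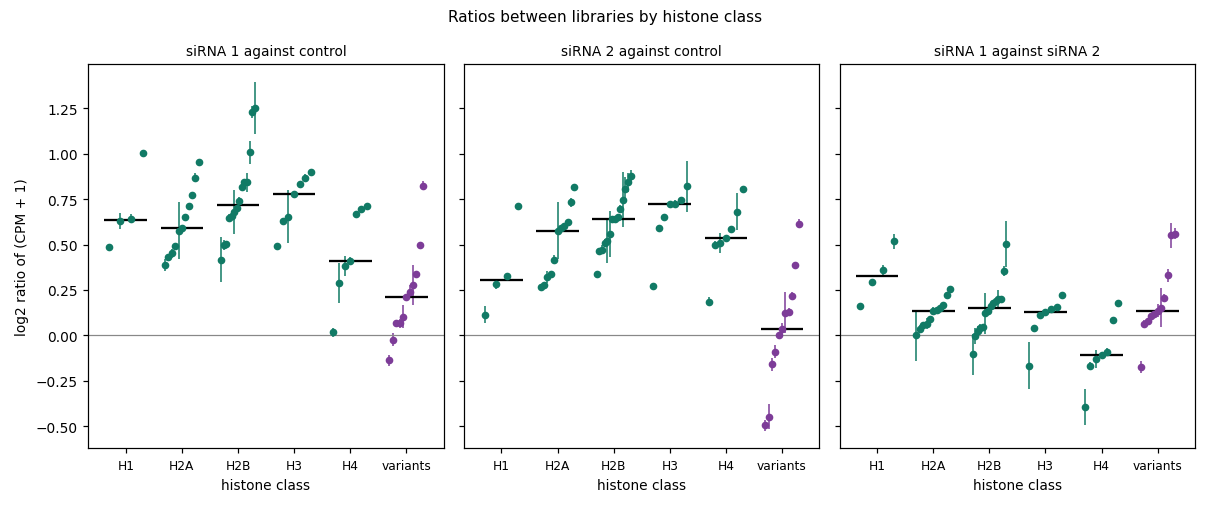
Log2 ratio of (CPM + 1) of every clustered histone gene by class and of the variants, for siRNA 1 against control, siRNA 2 against control and siRNA 1 against siRNA 2. Points are genes with bars of 1 counting standard error, horizontal lines are medians. The H4 genes lie mostly below 0 in the right panel (median -0.11) and the H1 genes all above it (median 0.33).

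The variants differed among themselves. Their median ratio was 0.21 with siRNA 1 and 0.04 with siRNA 2, so that the clustered median exceeded it by 0.45 and 0.55, a difference over genes with no test over samples. Over the 7 variants whose first transcript bases have no near copy elsewhere in the genome the medians were 0.066 and 0.00, and with TMM scaling of all 11 they were 0.24 and 0.08. Of the 11 variants 6 were higher than control in both libraries, as were 3242 of all 10357 genes, and 1 was lower in both, as were 4626 of all genes. That 1 was H2AFY, whose siRNA 1 ratio of -0.02 became 0.0018 with TMM scaling. H2AFX, the H2A form that is phosphorylated around DNA breaks and the variant gene with a stem-loop, was the exception in size. Its levels were 239.6, 425 and 368 CPM, a ratio of 0.82 (SE 0.023) and 0.62 (SE 0.024), and was the 1 variant at least 1.5-fold higher, in both libraries. It was also the 1 coding variant of 10 above the clustered median in either. The 9 coding variants without a stem-loop had median ratios of 0.10 and 0.00 and reached at most 0.50 and 0.39.

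H2AFZ and H2AFV encode both H2A.Z proteins, which mark nucleosomes near active starts. H2AFZ, the highest variant, had 1026, 1447 and 1343 CPM in control, siRNA 1 and siRNA 2, a ratio of 0.50 (SE 0.012) and 0.39 (SE 0.012). H2AFV had 410.1, 519 and 478 CPM. Both were lowest in control, with ratios below the clustered median. H3F3A and H3F3B both encode H3.3, which is deposited outside replication. H3F3A had 423, 489.6 and 463 CPM, and H3F3B 476, 498 and 476 CPM, the latter at ratios of 0.07 (SE 0.018) and 0.00 (SE 0.019). In control, the counting interval of H3F3A (415 to 431 CPM) overlapped that of H2AFV (402 to 418 CPM).

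The remaining coding variants were higher than control in at most 1 siRNA library. H1F0, the linker histone known to accumulate in cells that stop dividing, had 228, 239 and 162 CPM, a ratio of 0.07 (SE 0.027) with siRNA 1 and -0.49 (SE 0.029) with siRNA 2. H2AFY2, which encodes a macroH2A, had 38.2, 41.1 and 27.7 CPM, a ratio of 0.10 (SE 0.063) and -0.45 (SE 0.070). H2AFY, the other macroH2A gene, had 138, 136 and 123 CPM. H1FX, a further linker variant, had 127, 149.8 and 119 CPM, and H2AFJ 169, 153 and 173 CPM. For H1F0, H2AFY2 and H1FX the siRNA 2 library was the lowest and siRNA 1 the highest, whereas for H2AFJ siRNA 1 was the lowest.

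The siRNA libraries were also compared with each other, which leaves the control out. Of the 43 clustered genes 34 were higher with siRNA 1 than siRNA 2 and 8 lower, with a median ratio of 0.13, against 0.02 and 55.1% higher over all genes. The variants had a like median of 0.14, with 10 of 11 higher and 1 lower, so this shift was not particular to the clustered genes. No clustered gene was 1.5-fold higher, a size reached by 0.879% of all genes. Of the H4 genes 2 of 7 (HIST1H4C and HIST1H4H) were higher with siRNA 1 and 5 lower, against 32 higher and 3 lower of the other 36. The ratio was -0.11 for HIST1H4B, -0.13 for HIST1H4A, -0.17 for HIST4H4 and -0.39 (SE 0.098) for HIST1H4J. All 6 linker genes, clustered and variant, were higher with siRNA 1, from 0.16 for HIST1H1C to 0.52 for HIST1H1D and 0.56 for H1F0. That set of 6 was put together after its values were seen.

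Within most divergent pairs, where an H2A and an H2B gene start back to back, the ratios of the partners differed beyond counting error. There were 7 such pairs, with 169 to 250 bases between the annotated starts. The H2B gene had the higher ratio to control in 5 of 7 pairs in each siRNA library. HIST1H2AM (907, 1274 and 1093 CPM) and HIST1H2BO (556, 998 and 869 CPM) differed most in favour of H2B, by 0.35 with siRNA 1 (counting SE of the difference 0.020) and 0.37 with siRNA 2. HIST1H2AK (135, 177 and 169.6 CPM) and HIST1H2BN (289, 482 and 468 CPM) differed by a like amount. In the pair of HIST1H2BK (436, 618 and 552 CPM) and HIST1H2AH (538, 883 and 830.4 CPM) the H2A gene was ahead, by 0.21 and 0.29. The difference exceeded 2 counting standard errors in 6 of 7 pairs in each siRNA library. In these the H2B gene was ahead in 5 with siRNA 1 and 4 with siRNA 2. The pair within that limit was HIST1H2BL and HIST1H2AI with siRNA 1, and HIST1H2AJ and HIST1H2BM with siRNA 2. The values of HIST1H2AH were identical to those of the listed MIR3143, a microRNA gene.

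**Figure D4:**
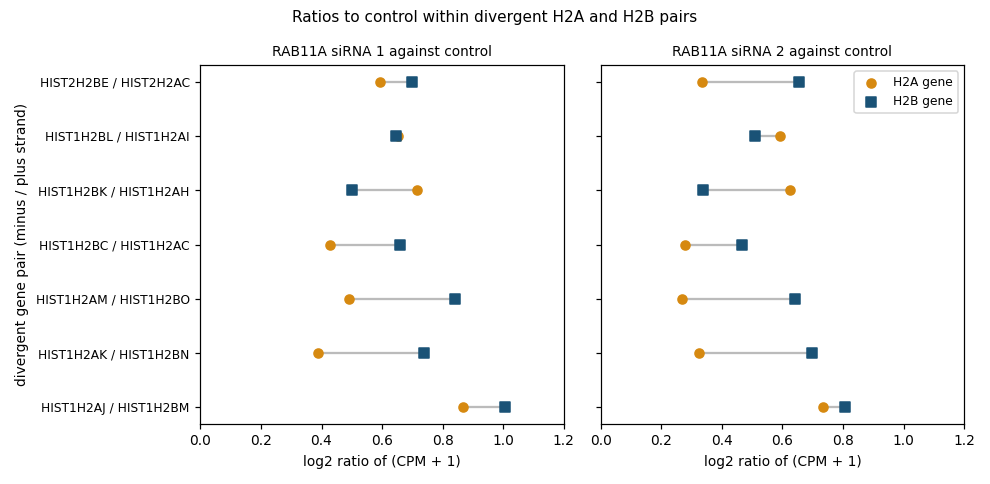
Log2 ratio of (CPM + 1) to control (horizontal axis) of the H2A gene (circle) and the H2B gene (square) of each divergent pair (rows), for siRNA 1 on the left and siRNA 2 on the right. The H2B square lies to the right in 5 of 7 pairs in both panels, and HIST1H2BK lies to the left of HIST1H2AH in both.

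Summed over all 48 genes, clustered histone tags came to 22011, 35055 and 31683 CPM in control, siRNA 1 and siRNA 2, which is 2.20%, 3.51% and 3.17% of each library's scale. The siRNA sums were 1.59-fold and 1.44-fold control. Without HIST1H3J the shares were 2.11%, 3.38% and 3.06%, and the folds were 1.60 and 1.45. Over all genes the recovered tags summed to 25174787, 25204585 and 25137457 in the same order. Each sum is above the scale of 24999950, so the values of all genes add up to more than the scale. The 12 variants together came to 3286, 4112 and 3746 CPM, 1.25-fold and 1.14-fold control. No class moved by more than 2 percentage points of the clustered total. H2A gave 32.8%, 31.3% and 31.0% in control, siRNA 1 and siRNA 2, and H2B 23.6%, 24.1% and 24.1%. H3 without HIST1H3J gave 16.5%, 18.0% and 18.3%, H4 13.8%, 13.1% and 13.99%, and H1 13.4%, 13.5% and 12.7%.

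The clustered genes were also described by promoter and 3′ end features. The 15 genes with an octamer had median ratios of 0.77 and 0.64, and the 19 with a window but no octamer 0.64 and 0.58. For TATAAA, taken here anywhere in the window, the order was the other way. Medians were 0.65 and 0.58 in the 26 genes with it and 0.76 and 0.62 in the 8 without these exact letters. These 26 are not the same genes as those counted above with a TATAAA near the start. They include HIST4H4, whose match lies outside its printed stretch. Medians by a TATAAA near the start were not computed. The 4 genes without CCAAT, all H4 genes, had medians of 0.48 and 0.63 against 0.68 and 0.60 in the 30 with it. The 7 clustered genes known to give polyadenylated mRNA as well, among them HIST1H1C, HIST1H2AC, HIST1H2BC and HIST2H2BE, had medians of 0.50 and 0.47, against 0.67 and 0.60 in the other 36. These groups overlap in their ranges, and the sources used here do not say how first-strand synthesis was primed, on which the capture of mRNA without a poly(A) tail depends.

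Genes that act on histones or their mRNA had list medians near 0. The list for synthesis and 3′ processing of histone mRNA had 39 of 40 genes measured, with median ratios of 0.07 and 0.02. Of these 19 were higher than control in both libraries and 12 lower in both, against 3242 and 4626 of all 10357 genes. At least 1.5-fold higher were 2 with siRNA 1 and 0 with siRNA 2 (2.8% and 1.17% of all genes). At least 1.5-fold lower were 0 and 3, against 260 and 190 of all genes. SLBP had 139.6, 165 and 154 CPM in control, siRNA 1 and siRNA 2 (ratios of 0.24 and 0.14), and NPAT 23.3, 24.8 and 23.8 CPM (0.09, SE 0.080, and 0.03, SE 0.081). The 2 higher genes were CDK2, the S-phase kinase (71.5, 116 and 86.8 CPM), and its partner CCNA2, cyclin A (84.5, 135 and 93.0 CPM). POU2F1, which encodes Oct-1, had 13.1, 9.28 and 7.68 CPM. DDX19B, a helicase of mRNA export, had 58.2, 42.2 and 35.04 CPM. Both were lowest with siRNA 2. CSTF2, a subunit of the cleavage machinery, had 34.1, 33.6 and 21.8 CPM, low with siRNA 2 alone.

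The 43 genes for histone chaperones and deposition had medians of 0.05 and 0.02, with 20 higher in both libraries (3242 of all 10357 genes) and 14 lower in both (4626 of all genes). Of these 43, 2 were at least 1.5-fold higher with siRNA 1 and 0 with siRNA 2 (2.8% and 1.17% of all genes). OIP5, of the complex that licenses centromeric chromatin, had 17.5, 30.6 and 23.7 CPM, and ASF1B, a chaperone of H3 with H4, had 29.4, 45.2 and 37.0 CPM. IPO7, an importin, had 223, 298 and 316 CPM. By contrast, the 35 of 38 measured genes of the DNA replication machinery had medians of 0.47 and 0.28, with 31 higher in both libraries, beside the same 3242 of all genes. At least 1.5-fold higher were 7 with siRNA 1 and 2 with siRNA 2, beside the same 2.8% and 1.17%. RRM2, a subunit of ribonucleotide reductase, led them with 81.0, 153 and 131 CPM (0.91, SE 0.039, and 0.69, SE 0.040), and TYMS, thymidylate synthase, had 175.6, 285 and 246 CPM. The clustered histone medians of 0.66 and 0.59 were above both, and the difference between the lists was not tested over samples.

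**Figure D5:**
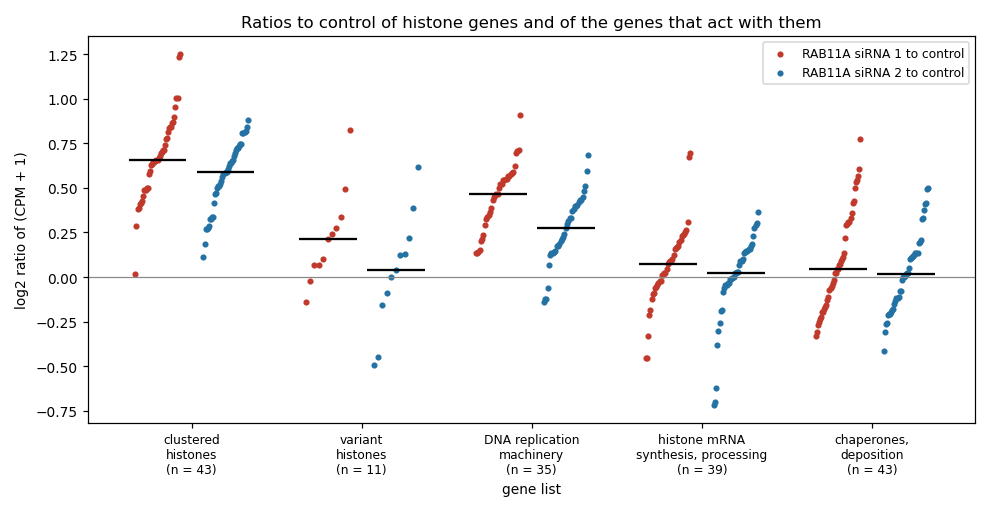
Log2 ratio of (CPM + 1) to control (vertical axis) of each gene in 5 lists (horizontal axis), for siRNA 1 (left column of each) and siRNA 2 (right column), with medians as lines. The clustered histone genes have the highest medians (0.66 and 0.59), the replication genes the next (0.47 and 0.28), and the processing and chaperone lists lie near 0.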

How the data were processed

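Per the file header, the authors deposited CPM values for each gene, with its strand, in 3 columns that name the libraries. The submitters' processing notes list hg19 as build and BWA and HISAT2 as tools, with no version. The sources used here do not say what each tool did, how tags were assigned to genes, by which annotation, or what became of tags with several matches. All 100.0% of the deposited CPM values in each library were whole multiples of 0.04 within 0.0051 CPM, so whole tags were recovered.

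Ratios were the log2 of (CPM + 1), over genes averaging 5 CPM or more, identical rows counted once. With 1 library per group, the main results carry no p-value. Counting standard errors came from Poisson variance and cover counting error only, as do the intervals. The sources used here do not say whether tags are independent molecules. A gene with 0 tags could have up to 3. The exact two-sided binomial test of recovered tags (Benjamini-Hochberg adjusted p of at most 0.05) was applied to 10357 genes. For siRNA 1 over control it made 2421 calls upward and 3019 downward, for siRNA 2 over control 1893 and 3110, and for siRNA 1 over siRNA 2 2231 and 1563. The ratio and the test were tried on simulated Poisson counts with no spread between cultures. That setting checks the counting error only and does not show how the test behaves on these libraries.

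The members, gene lists and comparisons were chosen with earlier results of these data known. Any member with a mean of at least 5 CPM could be named. Values in every library were due for the 5 highest by level and the 5 highest and 5 lowest by ratio in each pair of libraries, and other members' values were added to describe each class. From each list up to 6 genes with the largest absolute mean of both log2 ratios to control could be named, with NPAT and SLBP.

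Gene positions came from GENCODE lifted to GRCh37, where 28 clustered and 12 variant genes matched by identifier and 17 clustered by current symbol. HIST1H2BE, HIST1H2BI and HIST2H2BB were unmatched. The first 50 transcript bases were searched for copies with 2 or fewer mismatches with BLAST+ 2.17.0. Alternatives were a pseudocount of 0.5 or 5 CPM, a minimum mean of 1 or 20 CPM or none, TMM (edgeR 4.0.16, R 4.3.3) and median-ratio scaling, every row counted, members with copied starts left out, a 2-fold threshold and the binomial test. Leaving out HIST1H3J or the pseudogenes was added after seeing the data. The remaining work used samtools 1.23.1 and Python 3.11.15 (matplotlib 3.10.9, scipy 1.17.1, pandas 2.3.3, numpy 2.4.6).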

Additional observations from a re-analysis of the deposited data

How the results depend on the processing

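Of 92 alternative values 83 stayed within counting error or within 1.5 times the reported count, 9 moved further and 0 changed direction. Some of the 83 could not have moved. No members have identical rows, so counting every row left these values unchanged. Leaving out HIST1H3J, a clustered gene, could not change the variant medians. The clustered median with siRNA 2 was 0.53 with a pseudocount of 5 CPM, and 0.64 with TMM and with median-ratio scaling. These scalings raised all ratios to control by 0.02 to 0.03 with siRNA 1 and by 0.05 with siRNA 2. The variant median with siRNA 1 was 0.16 with a minimum mean of 20 CPM, 0.16 without pseudogenes and 0.066 over the 7 variants without a copied start. At 2-fold, 4 clustered genes were counted with siRNA 1 and 0 with siRNA 2, and the binomial test counted 43 with siRNA 2. These counts follow from the thresholds themselves. The cause of the other changes was not tested, beyond the fewer genes in the variant medians.

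No paired analysis was possible because each group has 1 library and the labels give no replicate numbers. Leaving out a library would leave its group empty, so no such value was computed. The spread between cultures is unknown, and depth sets only the counting error, which is widest for genes near 5 CPM.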
